A study of Mus musculus with 14 samples.

Results

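The genes described here are 30 genes of glucose uptake, glycolysis, lactate handling, control of pyruvate oxidation and glucose sensing, chosen by name from the 35976 genes of the deposited count tables. They are the hexokinases Hk1 and Hk2, the glycolytic enzymes Gpi1, Pfkl, Pfkm, Pfkp, Aldoa, Aldoc, Tpi1, Gapdh, Pgk1, Pgam1, Eno1, Eno2 and Pkm, the lactate dehydrogenases Ldha and Ldhb, the pyruvate dehydrogenase kinases Pdk1 to Pdk4, the glucose carriers Slc2a1 and Slc2a3, the lactate carriers Slc16a1 and Slc16a3, the glucose-responsive arrestins Txnip and Arrdc4, the 6-phosphofructo-2-kinases Pfkfb2 and Pfkfb3, and Bnip3, a mitophagy receptor that responds to hypoxia. All 30 were found in both tables and all 30 passed the filter on low counts at both ages. They were measured in supporting cells (SCs) of the mouse cochlea sorted by EGFP fluorescence and profiled by bulk RNA sequencing. Explants from Lfng-EGFP mice, which carry a reporter transgene built from Lfng regulatory sequence, were kept in culture for 24 h either with the γ-secretase inhibitor compound E at 2 μM, which blocks the cleavage that activates Notch, or with its solvent DMSO. Cochleae had been dissected at P0 to P1, here P0 as in the labels, with 4 compound E and 4 DMSO libraries, or at P6, with 3 and 3. All groups share the transgene, the culture, the dissociation and the sort. The study's methods for dissociation and sorting give 4 cochleae pooled in each tube. Its supplement gives a different number of cochleae for the bulk RNA sequencing, and how the numbers relate is not stated. The sort collects Lfng-expressing SCs as a mixture of subtypes, and Lfng itself fell with compound E at P0, by 1.67 on the log2 scale (adjusted p = 0.0241, edgeR's quasi-likelihood test). Libraries with the same age and replicate number carry the same batch label, and no batch holds both ages, so age and batch cannot be told apart. The labels do not say whether replicates came from separate litters, and p-values then measure only the spread between these samples, which may be technical.

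Glycolysis splits glucose to pyruvate, which is either reduced to lactate by lactate dehydrogenase or oxidized in mitochondria through the pyruvate dehydrogenase complex, and the PDK kinases switch that complex off. Txnip and Arrdc4 encode arrestin-fold proteins that remove glucose carriers from the cell surface, and both are textbook targets of the glucose-sensing factors MondoA (Mlxip) and ChREBP (Mlxipl), which enter the nucleus when sugar phosphates accumulate. Many of the other genes are also raised by hypoxia-inducible factors when oxygen is low, and the sensory epithelium of the cochlea holds few blood vessels of its own.

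The libraries held 19415066 to 44430063 counts at P0 and 23972228 to 41207627 at P6, and levels are given as counts per 1000000 counts of the library (RPM), with the mean ± SD over libraries. All 7 Notch target genes examined fell at P0 (median log2 fold change −2.70); at P6, where no gene of the table passed, all 7 were below 0 with a median of −1.61. All 8 SC markers were detected, and their summed level was 5582 to 6487 RPM with compound E and 6163 to 11200 RPM with DMSO at P0, and 2227 to 4692 and 3477 to 7327 RPM at P6. The summed level of 8 hair cell (HC) genes was 1079 to 1656 RPM with compound E against 564 to 1161 RPM with DMSO at P0, and 525 to 1182 against 388 to 1041 RPM at P6. The sum over 8 mesenchyme genes also separated by treatment at P0, amounting to 1230 to 1385 RPM with compound E and 955 to 1191 RPM with DMSO, although 7 of the 8 had a log2 fold change below 0 and none passed without pairing (1 rose with it). Erythroid genes summed to 0.167 to 8.97 RPM. The 4 Schwann cell genes summed to 29.7 to 82.6 RPM over all libraries, although 1 of them, Pmp2, was at 0 in every library. At P6 the replicate 3 libraries (batch 6) stood apart, with 3464 and 4165 RPM of mesenchyme genes against 928 to 2486 RPM in the other P6 libraries, and 78.9 and 33.1 RPM of macrophage genes. Their neuron genes summed to 109 and 127 RPM, against 25.4 to 45.6 RPM in the other P6 libraries. Their HC sums of 1182 and 1041 RPM stood against 388 to 575 RPM. Their SC sums of 2227 and 3477 RPM were the lowest of their treatments at P6. In such bulk samples fewer cells of a type and less RNA per cell cannot be told apart, and the part of cell makeup in the results below was not tested.

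Per kb of the longest coding transcript, the most abundant of the 30 genes in P0 DMSO libraries were Aldoa (1195 ± 350 RPM per kb, n = 4), which splits fructose bisphosphate, Ldha (1067 ± 289), the lactate dehydrogenase subunit that favours lactate, and Pkm (1008 ± 228), the pyruvate kinase. Their ranges overlapped, so their order is not resolved. The least abundant were Pdk4 at 1.84 ± 0.64, Pfkfb2 at 4.81 ± 1.07 and Slc16a1 at 5.08 ± 1.504 RPM per kb. Within families on this scale, Pfkl stood at 181 ± 42.2, Pfkp at 63.3 ± 24.2 and Pfkm at 17.3 ± 2.04, and the ubiquitous glucose carrier Slc2a1 at 278 ± 86.1 against 55.7 ± 19.6 for Slc2a3. Among lactate carriers, the exporter Slc16a3 stood at 85.2 ± 27.5 and Slc16a1 at 5.08. Ldha and Ldhb, at 624 ± 140 RPM per kb, overlapped in range at P0 but not at P6, where DMSO libraries had 1626 ± 54.7 and 394 ± 134 (n = 3). Only 3 steps in the P0 DMSO order separated neighbours whose ranges did not overlap, from Eno1 to Pfkl, from Gapdh to Slc16a1 and from Pfkfb2 to Pdk4. Gapdh, Pgk1, Pgam1 and Eno1 share much sequence with other genes, and their P0 places carry the limit given below with the age differences. Gapdh was at rank 27 in the P0 DMSO order and at rank 4 in that of P6 DMSO.

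**Figure D1:**
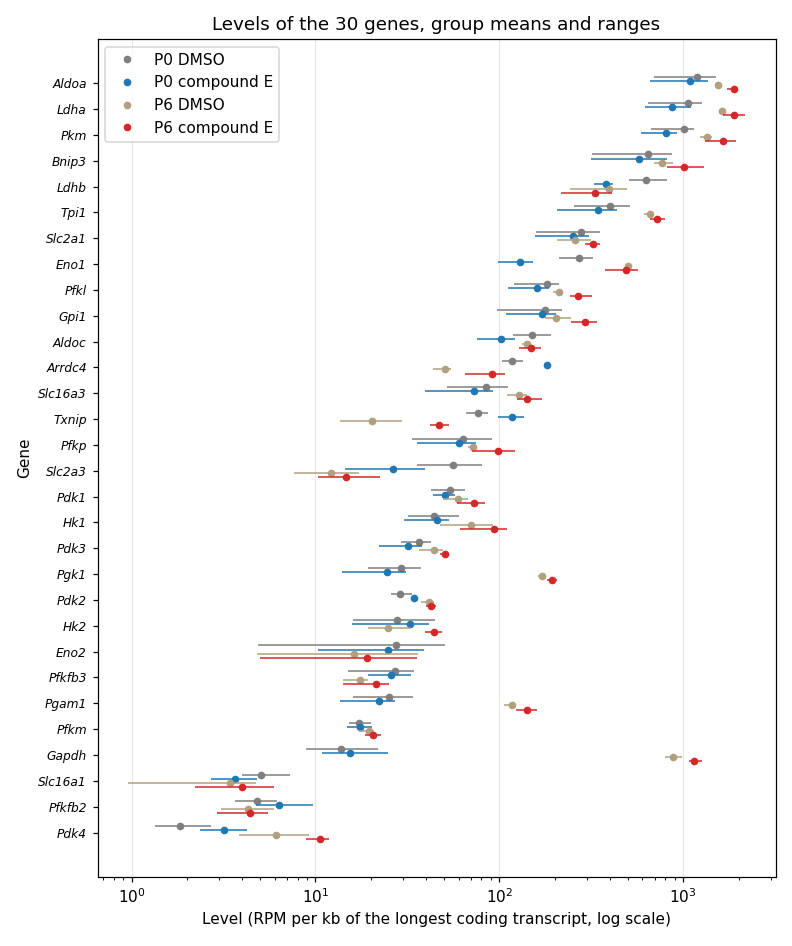
Level of each of the 30 genes in RPM per kb of its longest coding transcript, on a log scale, in the 4 groups (points, group means; lines, lowest to highest library; 4 libraries a group at P0 and 3 at P6). Genes are ordered by the mean of P0 DMSO, from Aldoa at 1195 to Pdk4 at 1.84; the P6 points of Gapdh, Pgk1 and Pgam1 lie far to the right of their P0 points.

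With compound E at P0, 3 of the 30 genes passed an adjusted p of 0.05 (edgeR's quasi-likelihood test over 15937 genes), where 3.87% of all genes tested did (1.29% higher and 2.59% lower). The arrestin Arrdc4 rose, and the enolase Eno1 and the lactate dehydrogenase Ldhb fell. DESeq2 called these 3 with Txnip and Slc2a3, where it called 6.86% of all genes, and Eno1 alone passed an adjusted p of 0.01 with a 2-fold change, where 1.22% of all genes did. The median log2 fold change was −0.17 over the 30 genes and 0.00695 over all genes tested, with 8 of the 30 above 0. With each compound E library set against the DMSO library of its replicate number, a paired fit that also absorbs the batches, 6 of 30 passed, where 7.5% of all genes did: those 3 together with Txnip and Pdk4, which rose, and Slc2a3, which fell. P0 replicates 3 and 4 share batch 3, so their pairing rests on the replicate number alone. A block by batch in place of replicate number added Txnip to the 3 calls, but not Pdk4 or Slc2a3. The share of all genes called in that fit is not given here.

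Arrdc4 stood at 713, 745, 688 and 704 RPM in P0 compound E replicates 1 to 4 and at 527, 406, 460.1 and 428 RPM in the DMSO replicates. Every compound E library lay above every DMSO library. Its log2 fold change was 0.61 ± 0.11 (SE; adjusted p = 0.0108). The call was lost without both libraries of replicate 2, 3 or 4 (adjusted p = 0.0973, 0.0893 and 0.178) and with all 14 libraries in 1 fit (0.0859), with log2 fold changes from 0.54 to 0.64; that fit called 1 of the 30 genes, Eno1, and 1.78% of all genes. Txnip, the paralog that also inhibits thioredoxin, stood at 303, 385, 279 and 352.5 RPM with compound E and at 186, 199, 235 and 247 RPM with DMSO. These groups did not overlap either, and the log2 fold change was 0.57 ± 0.16, with an adjusted p of 0.0976 without pairing and 0.0328 with it. Txnip overlaps the gene Gm15441 on the opposite strand, and no source used here states whether counting used strand.

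At P6 the same arrestins were again higher with compound E in every pair, although no gene of the 15322 tested passed at that age. Txnip stood at 118.5, 131 and 150.0 RPM in P6 compound E replicates 1 to 3 and at 50.3, 38.4 and 84.1 RPM with DMSO. Arrdc4 stood at 421, 396 and 253 RPM with compound E and at 213, 209 and 171 RPM with DMSO. Neither gene's groups overlapped at P6. The log2 fold changes were 1.23 ± 0.27 for Txnip (unadjusted p = 0.00219, adjusted p = 1 by edgeR) and 0.87 ± 0.24 for Arrdc4 (unadjusted p = 0.00811, adjusted p = 1), and with pairing both had an adjusted p of 0.365. Of the 14755 genes tested at both ages, 0.291% were higher with compound E without overlap at both ages, and among the 30 genes these were Txnip and Arrdc4. Pdk4 was the only other of the 30 to be higher in all 7 pairs, as were 4.05% of all genes. The 250 bases before the RefSeq start of each arrestin gene are shown because MondoA and ChREBP bind carbohydrate response elements, pairs of half-sites that resemble CACGTG but need not match it. CACGTG itself is present once in the Arrdc4 window (chr7:68749239-68749488, minus strand). The Txnip window (chr3:96557707-96557956, plus strand) holds 1 pair of half-sites of the form CACGNG (N is any base), 5 bases apart on the same strand, a pattern searched on both strands after the window had been seen. The coordinates are those of GRCm38.p6, and capitals mark CACGTG and the half-sites of the pair.
Arrdc4: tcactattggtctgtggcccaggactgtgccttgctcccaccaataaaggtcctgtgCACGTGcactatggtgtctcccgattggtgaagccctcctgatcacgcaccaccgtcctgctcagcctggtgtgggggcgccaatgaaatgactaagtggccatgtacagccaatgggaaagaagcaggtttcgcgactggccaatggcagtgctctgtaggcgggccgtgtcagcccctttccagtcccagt
Txnip: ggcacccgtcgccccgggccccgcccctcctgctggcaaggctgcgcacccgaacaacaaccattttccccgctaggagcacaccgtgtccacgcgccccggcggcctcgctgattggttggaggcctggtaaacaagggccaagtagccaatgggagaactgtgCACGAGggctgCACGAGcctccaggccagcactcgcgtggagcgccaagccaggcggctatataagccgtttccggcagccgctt
The sequence CACGTG was found in 6.02% of 32851 RefSeq promoter windows of this length and in 17.8% of the 45 windows of the set, which belong to 29 of its genes. The pair of half-sites was found in 15 of the 32851 windows (0.0457%), and in 1 of the 45, that of Txnip. No match says only that these letters are not in the window.

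**Figure D2:**
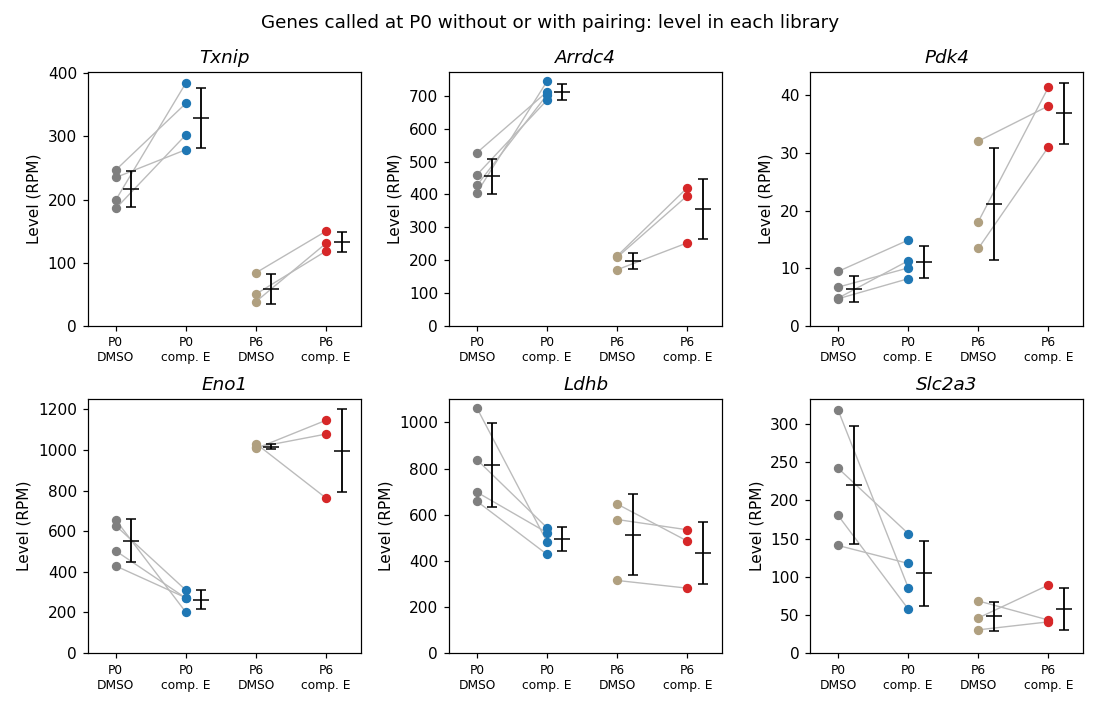
Level in RPM (y axis, starting at 0) of the 6 genes called at P0 without or with pairing, in each of the 14 libraries (points), with lines joining libraries of the same replicate number and bars for mean ± SD. Txnip and Arrdc4 are higher with compound E in all 7 pairs, while Eno1 is lower in all P0 pairs and in 1 of 3 at P6.

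Among the enzymes, Eno1, which converts phosphoglycerate to phosphoenolpyruvate, stood at 201, 272, 309.5 and 270.2 RPM with compound E and at 655, 429, 627 and 503 RPM with DMSO at P0. The groups did not overlap, and every compound E library was lower than its paired DMSO library. The log2 fold change was −1.10 ± 0.18 (adjusted p = 0.00835, edgeR). Without both libraries of replicate 4 it was −1.16 and did not pass (adjusted p = 0.0877), and none of the 30 genes did, where 0.83% of all genes passed. At P6 Eno1 stood at 763, 1078 and 1146 RPM with compound E and at 1031, 1012 and 1007 RPM with DMSO. These groups overlapped, and the log2 fold change was −0.02 ± 0.19. The test of the difference between the ages gave 1.10 ± 0.27 on the log2 scale (unadjusted p = 0.00126, adjusted p = 0.426 by edgeR over 17090 genes), while DESeq2 called it (adjusted p = 0.0275), so the call depends on the tool. The ages also differ in batch and count table, and Eno1 shares much sequence with other genes, as given below. The part of these in the difference was not tested. The neuronal enolase Eno2 followed the libraries more than the treatment, from 13.6 to 33.9 RPM in P0 replicates 1 and 2 and from 105 to 141 RPM in replicates 3 and 4 (batch 3). At P6 it reached 100.1 and 101 RPM in the replicate 3 libraries and 13.4 to 45.5 RPM in the others.

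Ldhb, the lactate dehydrogenase subunit that favours pyruvate, stood at 482, 543, 522 and 428 RPM with compound E and at 1062, 838, 697 and 658 RPM with DMSO at P0. The groups did not overlap. The log2 fold change was −0.75 ± 0.15 (adjusted p = 0.0258 without pairing and 0.0109 with it, edgeR). The call without pairing was lost when compound E replicate 1, 3 or 4 or DMSO replicate 2 was left out, with adjusted p = 0.0561, 0.0665, 0.104 and 0.0701 and log2 fold changes of −0.71, −0.78, −0.69 and −0.71. It was also lost without both libraries of replicate 1, 2, 3 or 4, with all 14 libraries in 1 fit, and under the study's thresholds. Ldha, its counterpart, stood at 1122, 2013, 1590 and 1625 RPM with compound E and at 2273, 1173, 2291 and 2012 RPM with DMSO. Here the groups overlapped, and the log2 fold change was −0.31 ± 0.24. At P6 Ldhb was lower in all 3 pairs, at 534.5, 486 and 281 RPM with compound E against 579, 646 and 315 RPM with DMSO, but the ranges overlapped and the log2 fold change was −0.23 ± 0.36.

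The neuronal glucose carrier Slc2a3 stood at 85.7, 117, 57.7 and 156.5 RPM with compound E and at 318, 141, 180.2 and 242 RPM with DMSO at P0. The groups overlapped, since compound E replicate 4 lay above DMSO replicate 2, but all 4 pairs were lower. The log2 fold change was −1.10 ± 0.31 (adjusted p = 0.105 without pairing and 0.0379 with it, edgeR). At P6 it stood at 43.2, 40.9 and 89.1 RPM against 68.2, 30.4 and 46 RPM, with 2 pairs higher and 1 lower. The main glucose carrier Slc2a1 ranged from 512 to 1008 RPM with compound E and from 516 to 1151 RPM with DMSO at P0 (log2 fold change −0.16 ± 0.28). The lactate carriers did not pass either, with −0.50 ± 0.24 for Slc16a1, which was lower in all 4 pairs, and −0.26 ± 0.31 for Slc16a3.

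Among the pyruvate dehydrogenase kinases, Pdk4, the isoform that rises on fasting in many tissues, stood at 8.17, 11.3, 14.9 and 10.04 RPM with compound E and at 4.69, 4.81, 9.43 and 6.71 RPM with DMSO at P0. All 4 pairs were higher with compound E although the ranges overlapped. The log2 fold change was 0.75 ± 0.29 (adjusted p = 0.281 without pairing, 0.0309 with it). At P6 Pdk4 stood at 31, 41.4 and 38.1 RPM against 13.4, 18.1 and 32 RPM, and its log2 fold change of 0.82 ± 0.32 did not pass. Pdk2 stood at 80.1, 74.3, 76.8 and 75.7 RPM with compound E and at 75.1, 57.8, 61.9 and 63.2 RPM with DMSO at P0, and was also higher in all 4 pairs, with a log2 fold change of 0.22 ± 0.09 (adjusted p = 0.318). Pdk1 and Pdk3 had log2 fold changes of −0.13 ± 0.14 and −0.23 ± 0.19.

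The remaining P0 values did not pass in either fit. The hexokinases Hk1 and Hk2 had log2 fold changes of 0.0044 ± 0.25 and 0.19 ± 0.40. The enzymes from Gpi1 to Pgam1 and Pkm lay between −0.58 ± 0.19 for the brain-enriched aldolase Aldoc, whose adjusted p was 0.176, and 0.14 ± 0.32 for Gapdh. Bnip3 had −0.17 ± 0.34, Pfkfb3 −0.09 ± 0.25 and Pfkfb2 0.36 ± 0.21. In all, 4 of the 30 genes were higher in all 4 P0 pairs, as were 17.4% of all genes tested, and 4 were lower in all 4, as were 11.7%. Without overlap of the treatments were 4 genes, Txnip, Arrdc4, Eno1 and Ldhb, against 9.88% of all genes tested, and TMM scaling gave 5.

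The pairs themselves differed at P0. In pairs 1 and 3, 24 of the 30 genes were lower with compound E, with median log2 ratios of −0.77 and −0.42, whereas in pair 2, 24 were higher, with a median of 0.72. In pair 4, 19 were lower (median −0.12). The median over the 9996 genes with a P0 mean of at least 10 RPM stayed between 0.02 and 0.07 in these pairs. Bnip3 shows the pattern, at 553, 1429, 940.4 and 1101 RPM in compound E replicates 1 to 4 and at 1524, 558.4, 1432 and 990.3 RPM in the DMSO replicates. The low libraries were compound E replicate 1 and DMSO replicate 2. Pkm stood at 1431, 2262, 2006 and 2187 RPM with compound E and at 2717, 1622, 2789 and 2675 RPM with DMSO, and Tpi1, the triose phosphate isomerase, at 333, 698, 588 and 581.5 RPM against 581, 409, 826 and 748 RPM, with the same low libraries. These libraries had the 2 lowest values of the 8 for 16 of the 30 genes (15 after TMM scaling), and for 4.86% of the 9996 genes. They came from different batches and treatments, and their totals of 44430063 and 39947189 counts were the largest at P0. Txnip, Arrdc4, Eno1, Ldhb, Slc2a3, Pdk2 and Pdk4 were not among the 16. Without both of these libraries 2 of the 30 genes were called at P0, Arrdc4 and Eno1, and Ldhb was not (log2 fold change −0.68, adjusted p = 0.118), where 2.39% of all genes were called.

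**Figure D3:**
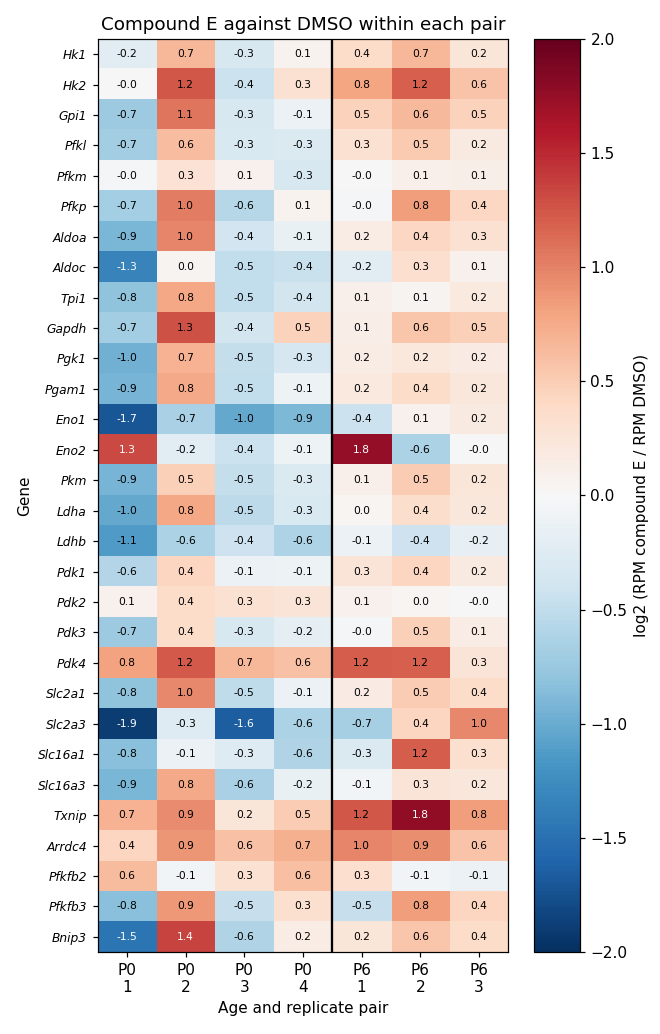
The log2 ratio of compound E to DMSO (colour and printed value, from −2 to 2) for each of the 30 genes (rows) in each replicate pair (columns, 4 pairs at P0 and 3 at P6). The column of P0 pair 2 is mostly red and those of pairs 1 and 3 mostly blue, while Txnip, Arrdc4 and Pdk4 are red in all 7 columns.

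Hypoxia-responsive genes followed the same libraries. Over 21 such genes that are not in the set, among them Vegfa, Ndrg1, Egln3 and Car9, the summed level was 3152, 6136, 5178 and 6041 RPM in P0 compound E replicates 1 to 4 and 5939, 3236, 7125 and 5629 RPM in the DMSO replicates. A second sum took the 13 glycolytic and lactate enzymes with less than 40% of their 75-base windows shared with other genes (explained below). The largest share among the 13 was 14.8%, for Pfkp. This enzyme sum was 5776, 10060, 8741 and 9081 RPM with compound E and 10830, 6626, 11870 and 10790 RPM with DMSO. Both sums were lowest in compound E replicate 1 and DMSO replicate 2, and 18 of the 21 hypoxia-responsive genes had their 2 lowest P0 values there. None of the 21 passed edgeR's test at P0 without or with pairing (median log2 fold changes −0.18 and −0.11), and 0 had an unadjusted p under 0.05, where 13.4% and 19.2% of all genes did. None passed at P6 (0.41 and 0.37), and 7 and 10 had an unadjusted p under 0.05, where 1.89% and 7.23% of all genes did. At P6 the hypoxia sums were 6065, 7708 and 7886 RPM with compound E and 5733, 5259 and 5997 RPM with DMSO, and the enzyme sums 13280, 17110 and 15780 RPM against 12230, 12930 and 13260 RPM. The part of these genes in the values of the 30 was not tested. Of the 16 genes of the set with this library pattern, 14 held ACGTG or GCGTG in at least 1 upstream window, and Gpi1 and Tpi1 held neither. Genes without the pattern held a core too, among them Hk2, Pfkm, Aldoc, Gapdh, Eno1, Ldhb, Pdk2, Pdk4, Arrdc4 and Pfkfb2. The window of Eno2, also without the pattern, held neither. The cores are thus not particular to genes with the pattern, and the share of all windows with either core was not computed. Windows of 3 of the 16, picked because they hold these letters, are shown with the cores ACGTG and GCGTG, the letters that hypoxia-inducible factors bind, in capitals as read on either strand, for Ldha (chr7:46845554-46845803, plus strand), Bnip3 (chr7:138909507-138909756, minus strand) and Pgk1 (chrX:106186850-106187099, plus strand), from RefSeq on GRCm38.p6. A second RefSeq window of Ldha (chr7:46846832-46847081) holds GCGTG once and no ACGTG.
Ldha: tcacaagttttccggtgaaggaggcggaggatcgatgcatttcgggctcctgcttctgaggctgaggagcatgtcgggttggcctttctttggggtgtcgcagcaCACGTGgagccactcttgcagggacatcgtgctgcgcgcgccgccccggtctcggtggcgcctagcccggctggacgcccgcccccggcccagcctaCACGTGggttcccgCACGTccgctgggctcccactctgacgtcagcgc
Bnip3: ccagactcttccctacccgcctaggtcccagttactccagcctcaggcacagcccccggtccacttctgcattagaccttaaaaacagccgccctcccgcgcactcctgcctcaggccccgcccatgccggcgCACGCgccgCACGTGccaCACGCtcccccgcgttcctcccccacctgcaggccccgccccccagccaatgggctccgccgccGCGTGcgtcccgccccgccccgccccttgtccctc
Pgk1: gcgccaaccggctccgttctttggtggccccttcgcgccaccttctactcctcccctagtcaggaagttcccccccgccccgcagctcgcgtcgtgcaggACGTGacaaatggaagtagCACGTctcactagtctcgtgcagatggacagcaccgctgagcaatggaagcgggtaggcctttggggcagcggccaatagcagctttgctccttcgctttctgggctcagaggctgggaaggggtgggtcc
ACGTG, which is part of CACGTG, was found in 44.4% of the 45 windows of the set against 16.6% of all 32851 windows, and GCGTG in 55.6% against 28.2%. A match describes the letters of a window and not a bound site.

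**Figure D4:**
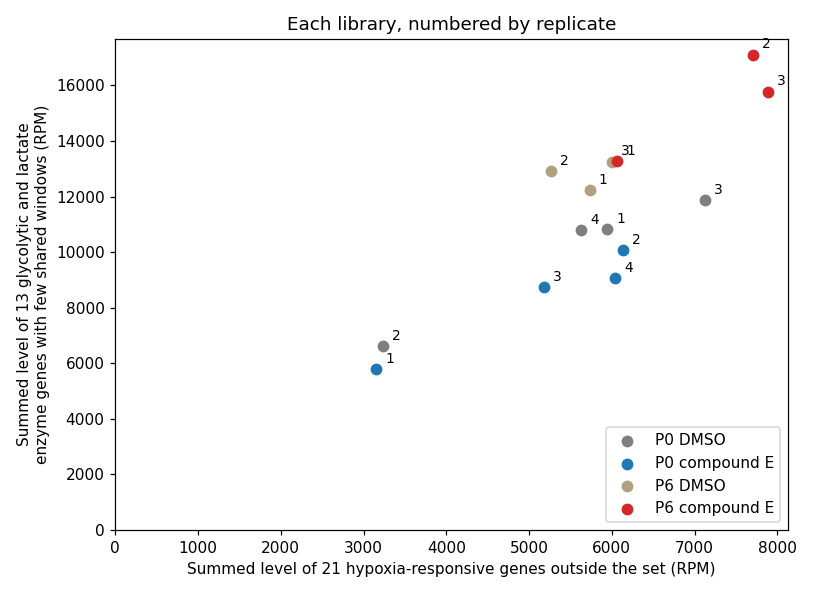
Summed level of 13 glycolytic and lactate enzyme genes (y axis, RPM) against that of 21 hypoxia-responsive genes outside the set (x axis, RPM), 1 point per library numbered by replicate and coloured by group. P0 compound E replicate 1 and DMSO replicate 2 lie at the lower left, at 3152 and 3236 RPM of hypoxia-responsive genes, and the P6 compound E libraries reach the upper right.

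With compound E at P6, 28 of the 30 genes had a log2 fold change above 0, with a median of 0.29 against 0.000721 over all genes tested, but 0 of 30 passed an adjusted p of 0.05, as did 0% of all genes, without or with pairing (edgeR). Unadjusted p was under 0.05 for 6 of the 30 genes without pairing and for 14 with it, against the 1.89% and 7.23% of all genes given above. DESeq2 called 1, Txnip (log2 fold change 1.24, adjusted p = 0.0198), where it called 0.131% of all genes. Higher in all 3 pairs were 17 genes (19 after TMM scaling), where 15.8% of all genes tested were, and lower in all 3 was Ldhb, where 17.1% of all genes were. The groups did not overlap for 7 genes, all higher with compound E (9 after TMM scaling), against 7.19% of all genes in either direction. Hk2, the inducible hexokinase, stood at 216, 241 and 268 RPM with compound E and 125, 106 and 181.5 RPM with DMSO. Its groups did not overlap, and its log2 fold change was 0.84 ± 0.20 (unadjusted p = 0.00389, adjusted p = 1 by edgeR), close to the 0.82 ± 0.32 of Pdk4 and the 0.87 of Arrdc4. With pairing these were 0.86 for Hk2, 0.89 for Pdk4 and 0.84 for Arrdc4, so their order is not resolved. Gpi1 had 0.53 ± 0.18, and Gapdh 0.40 ± 0.17. Pgk1, Pfkl and Aldoa did not overlap either, with 0.19 ± 0.15, 0.36 ± 0.18 and 0.31 ± 0.15. The common biological coefficient of variation was 46.7% at P6 and 27.2% at P0, with 3 libraries a group in place of 4.

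The difference in response between the ages, P6 minus P0, was above 0 for 28 of the 30 genes (median 0.50 against 0.02 over all genes), and 0 of 30 passed, where 0.0117% of all genes did (0 of 30 and 0.492% with pairing, edgeR). Unadjusted p was under 0.05 for 4 genes, where it was for 4.75% of all genes: Eno1, Slc2a3 (1.37 ± 0.52), Aldoc (0.68 ± 0.27) and Txnip (0.68 ± 0.31), and DESeq2 called Eno1 as above, where it called 0.392% of all genes. The 2 libraries of P0 that were low in these enzymes enter this difference, and leaving both out also gave 0 of 30.

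Between P6 and P0, 10 of the 30 genes passed in DMSO libraries (7 higher and 3 lower at P6), where 22.5% of all genes did (11.8% higher, 10.7% lower). In compound E libraries 19 passed (17 higher, 2 lower), where 22% of all genes did (12% higher, 9.95% lower). With an adjusted p of at most 0.01 and a 2-fold change, 9 did, against 6.43% of all genes. The comparisons use different libraries. The count in compound E libraries fell to 11 when P6 compound E replicate 2 was left out, where 13.8% of all genes passed. The SC markers moved with age too, with 4 of 8 lower at P6 in each treatment and 1 higher in compound E libraries (median log2 fold changes −0.89 with DMSO and −0.72 with compound E), and their part in the age differences was not tested. Any age difference is also a difference between batches and between the count tables, which were deposited separately for each age. Gapdh, the glyceraldehyde phosphate dehydrogenase, differed most, at 19.2, 35.3, 15.5 and 17.4 RPM with compound E and 31, 14.6, 20.1 and 12.6 RPM with DMSO at P0, and at 1532, 1792 and 1561 RPM with compound E and 1395, 1219 and 1127 RPM with DMSO at P6. No P0 library came near any P6 library, and the log2 fold changes were 6.08 ± 0.35 and 6.36 ± 0.36 with DMSO and compound E. Pgk1, the phosphoglycerate kinase, stood at 25.3, 57, 48.9 and 48.1 RPM with compound E and 49.3, 35.1, 68.1 and 60.7 RPM with DMSO at P0, and at 349, 376 and 331 RPM with compound E and 314, 324 and 296 RPM with DMSO at P6. Pgam1, the phosphoglycerate mutase, stood at 24.1, 48, 42.8 and 41.9 RPM with compound E and 45.7, 28.5, 60 and 45.1 RPM with DMSO at P0, and at 217, 284 and 253 RPM with compound E and 189, 220.0 and 217 RPM with DMSO at P6. Every P6 library lay above every P0 library for both genes, with log2 fold changes of 2.62 ± 0.27 (DMSO) and 3.10 ± 0.27 (compound E) for Pgk1 and 2.29 ± 0.26 and 2.81 ± 0.26 for Pgam1. Eno1, with the levels given above, was also higher without overlap at P6 (0.96 ± 0.19 and 2.05 ± 0.19).

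These 4 genes share much of their sequence with other genes. Of the 75-base windows of their coding transcripts in GENCODE M21, 55.5% for Gapdh, 67.5% for Pgk1, 40.6% for Pgam1 and 44.3% for Eno1 also occur in a transcript of another gene, mostly pseudogenes (114 of 121 genes for Gapdh). Bnip3, at 43.7%, differed less between the ages (log2 fold changes 0.35 ± 0.34 with DMSO and 0.95 ± 0.34 with compound E, neither past the threshold), and all other genes of the set lay at 23.6% or below. Over all genes with at least 10 RPM, 9.62% of those with more than 40% shared windows were at least 4-fold higher at P6 in DMSO libraries, and 0.321% at least 4-fold lower, against 1.44% and 1.46% of genes with no shared window. Per length, Gapdh stood at 13.8 ± 5.82 RPM per kb in P0 DMSO libraries, where Tpi1, the step before it in the pathway, stood at 399 ± 115 RPM per kb. Whether reads that fit several genes were counted in the same way for both tables is not given in the sources used here, and its part in these values was not tested. Genes below 40% can also stand far apart between the tables. Outside the set, Rpl9 (19.96% shared) was at 3.655 to 5.334 RPM at P0 and 66.33 to 117.1 RPM at P6. Rps13 (29.3%) was at 1.577 to 2.809 and 41.23 to 87.85 RPM. Of all genes with above 10% to 40% shared, 2.61% were at least 4-fold higher at P6 in DMSO libraries and 1.31% lower. A cut at 40% may thus leave such genes in, and the part of sharing below it was not tested. Without genes that share 40% or more of their windows, 25 of the set remained to be tested. Of these, 7 were called in DMSO libraries (4 higher, 3 lower), where 22.3% of all genes were, and 15 in compound E libraries (13 higher, 2 lower), where 21.5% were. The 7 include Ldha, which that fit added (adjusted p = 0.0466). Comparisons of treatments within an age use 1 table each.

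**Figure D5:**
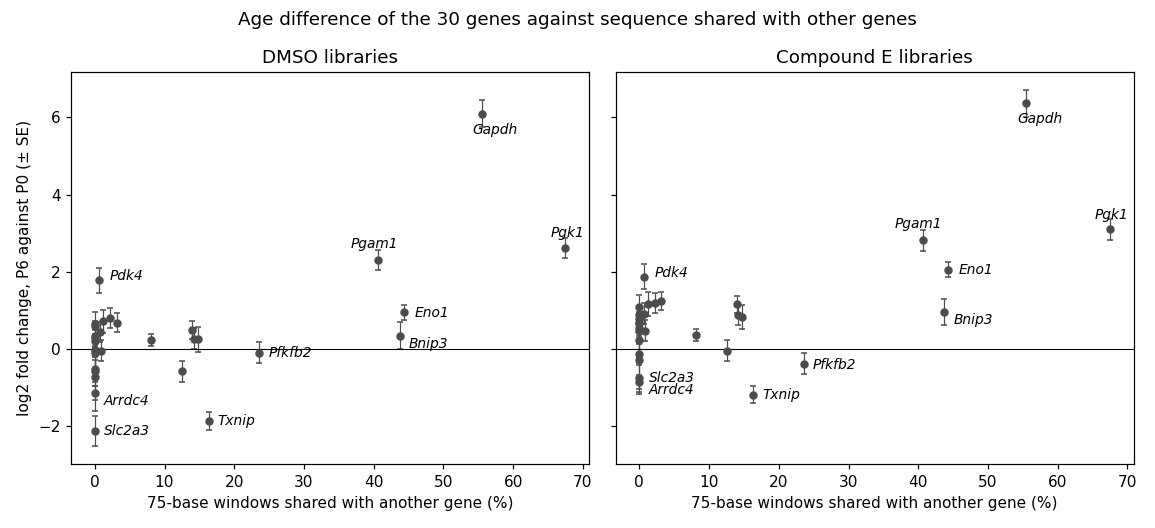
The log2 fold change from P0 to P6 (y axis, ± SE) of the 30 genes against the share of their 75-base windows found in another gene (x axis, percent), for DMSO and compound E libraries. Gapdh, Pgk1 and Pgam1 lie at the upper right, at log2 fold changes from 2.29 to 6.36, while genes with at most 23.6% shared windows lie between −2.11 and 1.87.

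Of the genes that share less than 40% of their windows, the arrestins (16.3% shared for Txnip) and Slc2a3 were lower at P6, and Pdk2 and Pdk4 were higher. Txnip was lower at P6 without overlap in both treatments (−1.86 ± 0.23 with DMSO, −1.18 ± 0.22 with compound E, adjusted p = 0.000105 and 0.00236), and so was Arrdc4 (−1.12 ± 0.18 and −0.86 ± 0.18, adjusted p = 0.000696 and 0.00411). Slc2a3 was lower in DMSO libraries (−2.11 ± 0.40, adjusted p = 0.0021) and did not pass in compound E libraries (−0.74 ± 0.38). Pdk4 was higher in both treatments (1.78 ± 0.32 and 1.87 ± 0.32, adjusted p = 0.00174 and 0.0013), and its P6 libraries all lay above the P0 libraries of their treatment. Pdk2 stood at 89.5, 101.9 and 95.9 RPM with compound E and at 84.4, 98.8 and 96.2 RPM with DMSO at P6, likewise above the P0 libraries, and was higher by 0.46 ± 0.11 and 0.61 ± 0.11 on the log2 scale. Tpi1 stood at 1055, 1128 and 1273 RPM with compound E and at 984, 1085 and 1107 RPM with DMSO at P6, also without overlap, with log2 fold changes of 1.19 ± 0.26 and 0.80 ± 0.26. It passed in DMSO libraries at an adjusted p of 0.0396, and 6 of the 7 omissions of a DMSO library ended that call, all but that of P0 replicate 3 (adjusted p = 0.0508 to 0.108). Ldha stood at 2989, 3922 and 3384 RPM with compound E and at 2906, 3066 and 2883 RPM with DMSO at P6, above every P0 library, and passed in compound E libraries only (1.24 ± 0.24, adjusted p = 0.00248; 0.69 ± 0.24 and 0.0509 in DMSO libraries). Pkm, at 3188, 4739 and 4127 RPM with compound E and 2987, 3346 and 3496 RPM with DMSO at P6, likewise passed only there (1.16 ± 0.22 against 0.50 ± 0.22). The difference between those age effects is the interaction above, which did not pass for either gene.

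Of 50 further genes of the pathway, 45 were tested at P0 and 4 passed, 2 in each direction, against the 3.87% of all genes, and none of 45 passed at P6 (1 at an unadjusted p under 0.05, edgeR). Mlxip, the glucose sensor MondoA, rose at P0 from 53.4 to 56.9 RPM with DMSO to 77.1 to 107 RPM with compound E (log2 fold change 0.65 ± 0.11, adjusted p = 0.00924). Mlxipl, the related sensor ChREBP, fell from 8.24 to 11.4 RPM to 2.58 to 3.79 RPM (−1.65 ± 0.20, adjusted p = 0.00197). Tkt, the transketolase of the pentose phosphate branch, fell (−0.69 ± 0.11, adjusted p = 0.00782), and Mpc1, a subunit of the mitochondrial pyruvate carrier, rose from a low level of 2.38 to 3.78 RPM to 5.31 to 9.09 RPM (1.31 ± 0.23, adjusted p = 0.0119). None of these 4 genes overlapped between treatments at P0. With pairing the carrier Slc2a12 (−0.53 ± 0.11) and the hypoxia-inducible factor Epas1 (−1.13 ± 0.21) also passed, which makes 6 of 45 where 7.5% of all genes did. The median log2 fold change of the 45 genes was −0.04 at P0 and −0.01 at P6.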

How the data were processed

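Supporting cells sorted from 14 explant pools were profiled as described above. Per the labels and the study's methods, the authors prepared SMART-Seq v4 libraries, trimmed reads with Trim Galore 0.6.0 and cutadapt 1.15, aligned these to GRCm38/mm10 using STAR and counted reads per gene. The submitters' processing notes give STAR 2.7.0f for all libraries, the study's methods name another version, and which one made each table is not resolved here. The deposited values are raw counts in 2 tables, 1 for each age, of 35976 genes each; counts from such PCR-amplified libraries without molecular identifiers are not independent molecules. Whether counting used strand, and how reads that map to several genes were treated, is not given in the sources used here.

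Levels in RPM are counts divided by the library total. Tests were edgeR 4.0.16 quasi-likelihood tests in R 4.3.3 on the whole table of counts, with TMM scaling, a filterByExpr minimum count of 10 and Benjamini-Hochberg adjustment over all genes tested, and a gene was called at an adjusted p of at most 0.05. The treatment comparisons were made within each age, with no other term. Age contrasts and the interaction used all 14 libraries. The study's own test, DESeq2 (here 1.42.0), and its thresholds, an adjusted p of at most 0.01 and a 2-fold change, were alternatives, as were other scalings, no filter, a replicate or batch block and omission of libraries. Libraries of the same age and replicate number share a batch label, and their deviations from the group means correlated at 0.162 to 0.5 at P0 and 0.264 to 0.62 at P6, so a paired fit, with the replicate number as a block, is given beside the main one where it changes a call. No 2 libraries of the same group agreed within sampling noise. Scripts were tested on simulated counts.

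Windows of 75 bases from the protein-coding transcripts of each gene were compared with all transcripts of other genes in GENCODE M21, pseudogenes among them. A gene without a protein-coding transcript was measured over all its transcripts. Promoter windows came from RefSeq (GRCm38.p6), which matched 29 of the 30 genes, all but Slc2a3. Both strands were searched for CACGTG, for ACGTG, for GCGTG and for 2 copies of CACGNG set 5 bases apart. CACGTG contains ACGTG and is 1 form of CACGNG. The genes, the lists and the tests were chosen with earlier results of these data known. Values in every library are given for the 12 called genes with the lowest adjusted p over the 5 comparisons, and for the leading responses to compound E; Ldhb, Hk2 and Bnip3 were added after their values were seen.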

Additional observations from a re-analysis of the deposited data

Results flagged for a closer look

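In groups of 4 libraries, 2 values lay apart from the rest of their group by Dixon's criterion. Pkm was at 1622 RPM in P0 DMSO replicate 2, below the other 3 DMSO libraries, which ranged from 2675 to 2789 RPM. Pfkfb2 was at 42.8 RPM in P0 compound E replicate 1, above the other 3 at 20.9 to 24.6 RPM. Of the 60 groups of 4 examined, about 3 would be marked by chance.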

How the results depend on the processing

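At P0, 3 of the 30 genes were called, against 5 with DESeq2, 6 with the replicate block, 4 with the batch block (Txnip added), 1 under the study's thresholds (Eno1), 1 with all 14 libraries in 1 fit (Eno1), and 0 to 3 with libraries or pairs left out, the 0 without both libraries of replicate 4 and 1 without both of replicate 2 or of replicate 3. Of all genes, 3.87% passed in the main fit, 6.86% with DESeq2 and 7.5% with the replicate block. The study's thresholds gave 1.22%, the fit of all 14 libraries 1.78%, and the fit without both libraries of replicate 4 gave 0.83%. Shares for the other P0 settings are not given here, so their counts describe only the calls. The direction did not change for any called gene under any alternative run. At P6 the count was 0, and 1 with DESeq2, which called 0.131% of all genes. The interaction had 0, and 1 with DESeq2, which called 0.392% of all genes. The replicate block left P6 and the interaction at 0 (lowest adjusted p among the genes at P6 0.365), and no block could be made between ages, because no replicate number is shared by libraries of both ages in 1 batch. In the age comparison of compound E libraries the count was 19, against 9 under the study's thresholds and 11 to 21 with libraries left out (11 without P6 compound E replicate 2). Of all genes, 22% passed there in the main fit, 6.43% under the study's thresholds and 13.8% without P6 compound E replicate 2. In DMSO libraries the count was 10, where 22.5% of all genes passed, against 7 to 12 over all alternatives. The other omissions of libraries are given without such shares, so their counts describe only the calls. The omissions of the libraries low in glycolytic genes, of P6 batch 6 and of genes with shared windows were chosen after seeing the data. The cause of these differences was not tested, beyond the fewer libraries of an omission and the stricter study thresholds.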

Other observations

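Some of the further genes of the pathway differed between the ages, with the limit that age, batch and count table cannot be told apart; those named here were chosen after their values were seen. G6pdx, which opens the pentose phosphate branch, was higher at P6 by 2.07 ± 0.23 on the log2 scale in DMSO libraries and 1.60 ± 0.22 in compound E libraries (adjusted p = 3.5e-05 and 0.0003, edgeR), with 4.07% of its 75-base windows shared. Pgd, which acts after it, was higher by 1.02 ± 0.11 and 1.03 ± 0.11 and shares no window. The other 3 genes of that branch in the list did not move alike in both treatments. Taldo1 was higher in DMSO libraries (0.48 ± 0.10) and did not pass in compound E libraries (0.14 ± 0.10), Tkt was lower in DMSO libraries (−0.50 ± 0.13) and did not pass in compound E libraries (0.30 ± 0.13), and Pgls did not pass in either (0.27 ± 0.21 and 0.40 ± 0.21). Pdp1, the phosphatase that opposes the PDK kinases, was lower, with log2 fold changes of −1.03 ± 0.28 and −1.02 ± 0.28. In all, 12 of 46 further genes tested passed in DMSO libraries (6 in each direction), where 22.5% of all genes did, and 11 of 46 in compound E libraries (7 higher, 4 lower), where 22% did.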
